A study of Mus musculus with 2 samples.

Results

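The regions near the distal chromosome ends were those of chromosomes 1 to 19 whose start lay within 2 Mb below the largest region end on that chromosome in either of the 2 deposited lists, in mm9 coordinates. This gave 396 of the 25592 regions of sample 1 and 672 of the 42619 regions of sample 2, or 1068 of 68211 in all. The limit uses position only and no score or width, while the outermost region of each chromosome is a member by construction. Sharing is not fully independent of it: the end is the larger of both lists, and 5 sample 1 regions and 32 sample 2 regions beyond the last region of the other list could have no partner. Both lists come from chromatin immunoprecipitation followed by sequencing (ChIP-seq) on the corneal epithelium of K14 DN-Clim mice at postnatal day 7, where an anti-Myc antibody recovered the tagged transgene protein, a dominant-negative form of the cofactor Clim. The transgene is named for keratin 14, whose promoter is active in basal epithelial cells, whereas the chromatin came from the whole epithelial sheet. Both samples belong to 1 group of 2 replicates, and the labels do not say whether they came from separate animals. No input, untagged or wild-type library was analysed here, so the counts have no background level to be read against. Depth is unknown because read totals were not part of the sources, and intervals of shares cover counting error only.

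Mouse autosomes are telocentric: the centromere sits at the end where coordinates begin, and the distal end carries the telomere of the only long arm. Telomeres are simple repeats held by the shelterin complex, and the sequence inside them, the subtelomere, can hold segmental duplications and families of similar genes beside ordinary single-copy genes. Reads from repeated copies are hard to place, and a called region there needs reads that the aligner could assign. Clim proteins, also named Ldb or Nli, do not bind DNA themselves and are brought to DNA by LIM-domain transcription factors and their partners. Whether a called region near an end reflects the tagged protein was not tested.

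The distal windows together spanned 38 Mb, which is 1.57% of the length from the first to the last listed region of the 19 chromosomes. They held 1.60% of the sample 1 regions, 1.63% of the sample 2 regions and 1.54% of the shared regions on these chromosomes. A shared region is a merged stretch where regions of both lists overlap by at least 1 bp, and 307 of them lay in the distal windows. The distal ends therefore held close to the share of regions that their length gives.

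The region that set the end came from the sample 2 list alone on 13 chromosomes, from the sample 1 list alone on 5, and from both lists at the same base on chromosome 5. It had a partner in the other list on 5 chromosomes and none on 14. Of all regions on chromosomes 1 to 19, 80.5% had a partner in sample 1 and 48.5% in sample 2. An outermost region that starts beyond the last region of the other list can have no partner, so this count is not a measure of sharing at the ends. The last regions of the lists ended a median of 24843 bp apart, and on chromosome 10 they ended 1193154 bp apart. On that chromosome the sample 2 list went on to 129770287, while the sample 1 list stopped at 128577133. The outermost 1 Mb of chromosome 10 thus held no sample 1 region and no shared region, whereas its next 1 Mb held 12 shared regions. In gene order, the outermost protein-coding genes of chromosome 10 in the RefSeq table of the GRCm38 assembly are Vmn2r87, Vmn2r86, Vmn2r85 and Vmn2r84, which belong to a family of vomeronasal receptor genes. That table uses another build, so genes are given here by their order along the chromosome only, and no region was assigned to a gene.

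**Figure D1:**
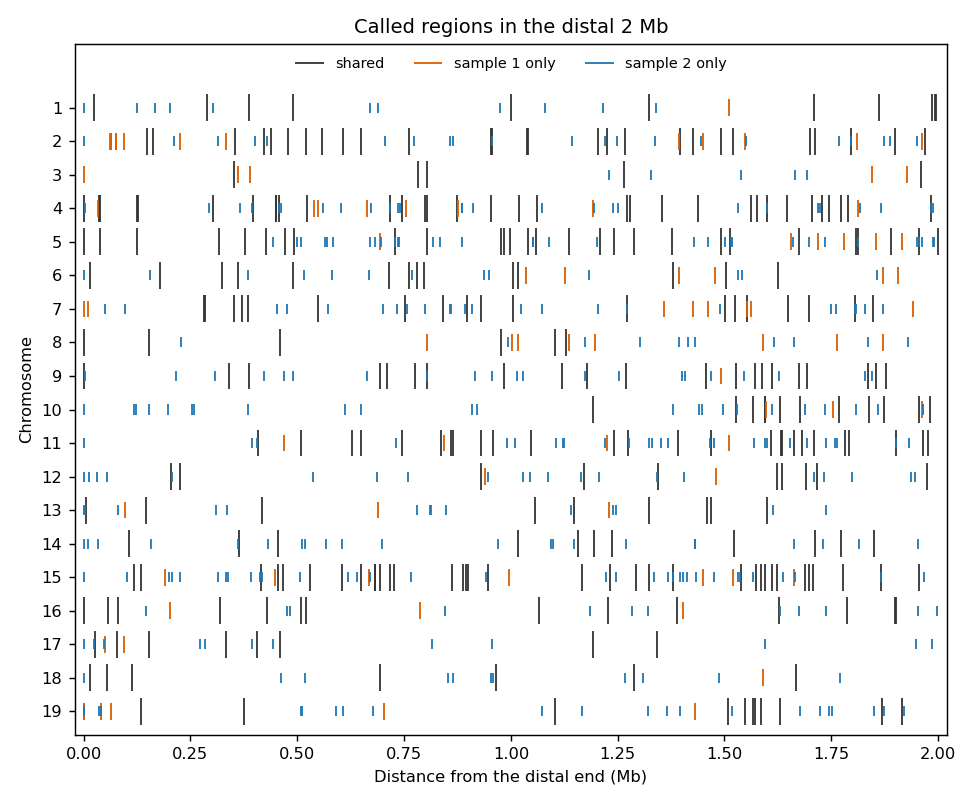
Each row is the distal 2 Mb of a chromosome, with the distance from the distal end in Mb on the horizontal axis. Tall black lines are the 307 shared regions, orange lines the 88 regions in the sample 1 list only and short blue lines the 363 regions in the sample 2 list only. The outermost 1 Mb of chromosome 10 shows sample 2 regions alone.

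The chromosomes differed widely in their distal windows. The count of shared regions per window ranged from 5 to 35, with a median of 12. Chromosome 15 had the most, with 43 sample 1 regions, 70 sample 2 regions and 35 shared regions. Chromosome 4 followed with 41 sample 1 regions, 60 sample 2 regions and 33 shared regions. Chromosomes 5, 2 and 11 held 28, 27 and 26 shared regions. These 5 windows were the upper end of the range, and the next, on chromosome 9, held 21.

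The outermost protein-coding genes of chromosome 15 in the GRCm38 order are Mucl2, Glycam1, Ppp1r1a, Pde1b and Nckap1l. Further in, the integrin gene Itga5 is the 8th protein-coding gene from the end, and the Hoxc genes, homeobox transcription factors of body patterning, include Hoxc4 as the 16th and Hoxc13 as the 24th. The keratin genes Krt18, Krt8 and Krt1 are the 50th, 51st and 57th. Krt5, which encodes the partner of keratin 14 in basal epithelial cells, is the 62nd. The genes from Itga5 inward were picked after the count on chromosome 15 had been seen. Whether they lie in the mm9 window was not analysed here. On chromosome 4 the order from the end is Vmn2r129, Samd11, Noc2l, Klhl17 and Plekhn1. On chromosome 2 it is Gm14496, Gm40035, Polr3k, a subunit of RNA polymerase III, Pcmtd2 and Myt1, a zinc-finger transcription factor gene.

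At the low end, chromosome 3 had 10 sample 1 regions, 10 sample 2 regions and 5 shared regions in its distal window. Chromosome 8 had 14 sample 1 regions, 17 sample 2 regions and 6 shared regions. Chromosome 18 had 8 sample 1 regions, 18 sample 2 regions and 7 shared regions. The outermost genes of chromosome 3 in the GRCm38 order are Wls, whose product carries Wnt proteins to the cell surface, and Rpe65, an enzyme of the visual cycle. On chromosome 8 the order from the end is Gm32856, 2610044O15Rik8, Ccdc7b, Ccdc7a and Itgb1. Itgb1 encodes the integrin beta 1 subunit, through which epithelial cells hold to the basement membrane. Whether any of these genes lies in its mm9 window was not analysed here.

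The replicate lists ordered the chromosomes alike. Across the 19 chromosomes, the distal counts of the lists had a Pearson correlation of 0.911 and a Spearman correlation of 0.866, given as a description because the windows share both libraries. The distal density of shared regions went less closely with that of the rest of the same chromosome, with a Pearson correlation of 0.367 and a Spearman correlation of 0.291. With the distal window moved aside, the 1180 other consecutive windows of 2 Mb held a median of 15 shared regions, with an interquartile range of 9 to 22. The distal windows had a median of 12 and an interquartile range of 9.5 to 23.5. The variance of the count was 5.50 times its mean over the distal windows and 6.22 times over the others, so the distal windows were about as uneven as windows elsewhere.

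Against the rest of the same chromosome, the density of the distal windows was not distinguishable. Shared regions averaged 8.08 ± 4.71 per Mb in the distal windows and 8.40 ± 1.23 per Mb in the rest (SD, n = 19 chromosomes). The mean difference was -0.325 per Mb, with a 95% interval (Student's t over chromosomes) of -2.45 to 1.80. It was positive on 7 chromosomes and negative on 12 (two-sided exact paired permutation test over chromosomes, p = 0.749, adjusted p = 0.911 over the 11 comparisons made). The permutation test treats chromosomes as the units, but all of them come from the same 2 libraries, so its p-values describe spread between chromosomes and not between animals. Sample 1 regions averaged 10.4 ± 5.82 per Mb in the distal windows and 10.4 ± 1.54 per Mb in the rest (interval of the difference -2.65 to 2.64, exact permutation p = 0.996, adjusted p = 0.996). Sample 2 regions averaged 17.7 ± 8.43 per Mb in the distal windows and 17.3 ± 2.07 per Mb in the rest (interval of the difference -3.31 to 4.08, exact permutation p = 0.828, adjusted p = 0.911). These intervals leave room for differences of 2 regions per Mb or more in either list.

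Among all windows of 2 Mb on its own chromosome, the distal window was the densest nowhere. On chromosome 4, 9.33% of the other windows held more shared regions than the distal one, and on chromosomes 15 and 2 it was 10.2%. On chromosomes 3 and 18, 85.7% of the other windows held more. Over all chromosomes, 566 of the 1180 other windows held more than their distal window, 50 held as many and 564 held fewer. The distal windows thus stood in the middle of their chromosomes' ranges as a group.

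The windows next to the distal ones were denser on average. From 2 to 4 Mb below the end, the 19 chromosomes held 472 shared regions, against 307 in the distal 2 Mb themselves. The distal windows averaged 8.08 ± 4.71 shared regions per Mb and the neighbouring windows 12.4 ± 6.62 (SD, n = 19). The mean difference was -4.34 per Mb with a 95% interval of -7.15 to -1.53, and the distal window was lower on 14 chromosomes, higher on 4 and equal on 1. This passed the threshold narrowly, with an exact permutation p of 0.0045 and an adjusted p of 0.0497 over the 11 comparisons. Leaving out 1 chromosome at a time gave adjusted p-values between 0.0176 and 0.0994, and 14 of the 19 omissions put it above 0.05. Only the omissions of chromosomes 2, 4, 12, 17 and 18 kept the call. With distal and neighbouring windows of 1 Mb the difference was -1.63 per Mb (exact permutation test, adjusted p = 0.655). With windows of 4 Mb it was -1.51 per Mb (exact permutation test, adjusted p = 0.336). At 1 Mb both windows lie within the distal 2 Mb, and at 4 Mb the distal window takes in the stretch from 2 to 4 Mb. Neither length thus sets the distal 2 Mb against the 2 Mb next to them. The distal windows, and not their neighbours, also include the stretch beyond the last region of the shorter list, where no region can be shared. This stretch had a median length of 24843 bp and was 1193154 bp on chromosome 10. The density of shared regions was not recomputed without it, and its part in the difference was not tested.

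The largest contrast was on chromosome 10, with 12 shared regions in the distal window and 42 in its neighbour. In the outermost 1193154 bp of that distal window no region could be shared, because the sample 1 list had ended. Chromosome 8 had 6 in the distal window and 35 in its neighbour. Chromosome 14 had 11 and 34 in these windows, and chromosome 16 had 14 and 34. The 4 exceptions were chromosome 2, with 27 in the distal window and 17 in its neighbour, chromosome 4, with 33 and 29, chromosome 17, with 8 and 5, and chromosome 18, with 7 and 4. On chromosome 12 both windows held 10. Over the 19 chromosomes, the distal and neighbouring counts had a Spearman correlation of 0.614 and a Pearson correlation of 0.514, as a description.

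**Figure D2:**
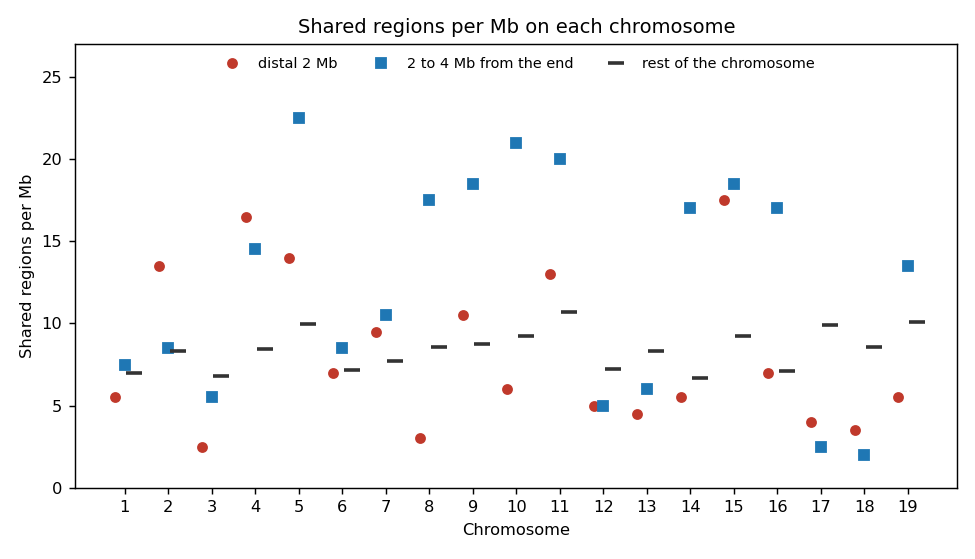
Shared regions per Mb (vertical axis) on each autosome, in the distal 2 Mb (red circles), 2 to 4 Mb from the end (blue squares) and in the rest of the chromosome (black bars, which include the neighbouring window). Red circles range from 2.5 to 17.5 and lie below the blue squares on 14 of 19 chromosomes.

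In steps of 1 Mb, the density of shared regions was 7.26 ± 5.14 per Mb in the outermost step, 8.89 ± 5.17 in the next and 13.2 ± 7.68 in the third (SD, n = 19). From the third step out to 20 Mb, no step was below 9.32 per Mb or above 13.6 per Mb. Both lists had this course. Sample 1 had 9.37 and 11.5 regions per Mb in the first and second steps and 15.3 in the third. Sample 2 had 16.4 and 18.9 regions per Mb in the first and second steps and 24.6 in the third. Each of the 9 consecutive windows of 2 Mb from 2 to 20 Mb held more shared regions than the distal window on 10 to 14 of the chromosomes. Their densities averaged 10.5 to 12.7 per Mb, all above the 8.08 of the distal windows. Over the whole stretch from 2 to 20 Mb, the mean was 11.5 ± 3.72 shared regions per Mb, and over the chromosome beyond it 7.86 ± 1.04 (SD, n = 19). The distal window was lower than this stretch on 17 of 19 chromosomes, by a mean difference of -3.44 per Mb. The stretch was chosen after these steps had been seen, so the difference is a description and supports no call. Gene content, base composition and the share of sequence to which reads can be assigned along these steps were not analysed here, and their part in the result was not tested.

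**Figure D3:**
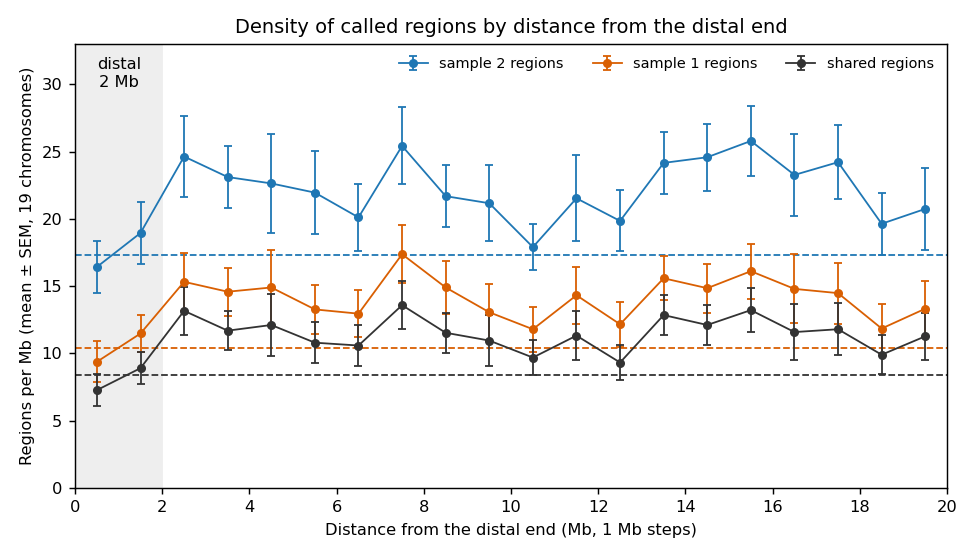
Regions per Mb in 1 Mb steps of distance from the distal end, as the mean over 19 chromosomes with its standard error, for sample 2 (blue), sample 1 (orange) and shared regions (black). Dashed lines give the mean density of the chromosomes outside the distal 2 Mb, and the shaded band marks the distal 2 Mb. The 2 steps in the band lie below the third step in all 3 curves.

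The density was not distinguishable from that of the opposite chromosome end. The distal windows averaged 8.08 ± 4.71 shared regions per Mb and the first 2 Mb of the listed span 7.37 ± 3.30 (SD, n = 19). The interval of the difference was -2.04 to 3.47 per Mb (exact permutation p = 0.607, adjusted p = 0.911), with the distal window higher on 8 chromosomes and lower on 11. With windows of 4 Mb the means were 10.25 per Mb at the distal end and 7.21 at the opposite end (exact permutation p = 0.0483, adjusted p = 0.253). The distal window was then higher on 12 chromosomes and lower on 7. Within the distal windows, 14 of 288 consecutive pairs of shared regions (4.86%) started within 5 kb of each other, against 1386 of 19633 (7.06%) in the rest. The median spacing of shared regions was 64.9 kb in the distal windows and 61.2 kb in the rest.

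Sharing between the lists was not distinguishable between the distal windows and the rest by the test in either list. Of the distal sample 1 regions, 308 of 396 overlapped a sample 2 region, or 77.8% (exact 95% interval 73.4 to 81.8%), where 80.5% of all sample 1 regions on chromosomes 1 to 19 did so. Of the distal sample 2 regions, 309 of 672 overlapped a sample 1 region, or 46.0% (42.2 to 49.8%), where 48.5% of all sample 2 regions on these chromosomes did so. Averaged per chromosome, the share of sample 1 regions found in sample 2 was 77.5 ± 14.4% in the distal windows and 80.6 ± 1.10% in the rest (exact permutation p = 0.364, adjusted p = 0.692). The share of sample 2 regions found in sample 1 was 44.5 ± 8.19% in the distal windows and 48.6 ± 2.13% in the rest (exact permutation p = 0.0536, adjusted p = 0.295). The interval of this difference was -8.22 to 0.0443 percentage points, and the distal share was lower on 12 of 19 chromosomes. Without the regions beyond the last region of the other list, an alternative chosen after seeing the data, the distal share was 47.0% and that of the rest 48.6%, a mean difference of -1.64 percentage points (exact permutation p = 0.371, adjusted p = 0.914). For sample 1 the mean difference was then -2.10 percentage points (exact permutation p = 0.518, adjusted p = 0.914).

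By chromosome, every one of the 11 distal sample 1 regions of chromosome 14 had a partner, and 21 of 22 did on chromosome 9. On chromosome 8, 8 of 14 distal sample 1 regions were without a partner, and on chromosome 3, 5 of 10. For sample 2 the lowest shares were 32.3% on chromosome 12 and 33.3% on chromosome 14, and the highest was 56.3% on chromosome 2. Distal windows hold few regions, so the share of a single chromosome is coarse.

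The scores of distal regions spanned the same range as the bulk of each list. The score is the value deposited by the authors without a definition, and the tests of score used its percentile within its own list. The median score was 174.2 in the distal windows and 166.7 in the rest for sample 1, and 77.4 in the distal windows and 81.9 in the rest for sample 2. The mean percentile in sample 1 was 52.1 ± 7.25 in the distal windows and 49.9 ± 0.809 in the rest (interval of the difference -1.26 to 5.68, exact permutation p = 0.195, adjusted p = 0.555). In sample 2 it was 48.3 ± 4.83 in the distal windows and 49.8 ± 0.895 in the rest (interval of the difference -3.87 to 0.866, exact permutation p = 0.202, adjusted p = 0.555). Above the 90th score percentile of each list were 41 of 396 distal sample 1 regions (10.4%) and 73 of 672 distal sample 2 regions (10.9%). In the rest it was 9.97% of the sample 1 regions and 9.86% of the sample 2 regions. The highest distal scores, 594.87 in sample 1 and 614.84 in sample 2, ranked 82nd and 9th in their whole lists. Distal regions made up 1.60% and 1.63% of the regions on these chromosomes, and whether these ranks differ from those of other windows was not tested.

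Regions with a partner scored higher than those without in the distal windows, as they did in the rest. The median score of distal sample 1 regions was 183.7 with a partner and 143.9 without. For distal sample 2 regions it was 93.2 with a partner and 69.4 without. In the rest these medians were 172.8 and 149.2 in sample 1, and 95.2 and 70.6 in sample 2. Across the 310 distal pairs of overlapping regions the scores had a Spearman correlation of 0.232 and a Pearson correlation of 0.286, and across the 19721 pairs in the rest 0.175 and 0.310. These are descriptions across regions, which are not independent.

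The widths of the distal regions were close to those of the rest. The median width was 84 bp in the distal windows and 83 bp in the rest for sample 1, and 108 bp in the distal windows and 106 bp in the rest for sample 2. Sample 1 regions without a partner were wider in the distal windows, with a median of 116 bp against 81 bp in the rest. With a partner these medians were 83 and 83.5 bp. In sample 2 they were 112 and 110 bp without a partner, and 99 and 102 bp with one. The split by partner was not tested. Regions were taken as narrow under 105 bp in sample 1 and under 100 bp in sample 2. Of the distal sample 1 regions 62.1% were narrow (exact 95% interval 57.1 to 66.9%), and so were 62.7% of the rest. In sample 2 it was 46.1% of the distal regions (42.3 to 50.0%) and 46.9% of the rest. Averaged per chromosome, the narrow share of sample 1 was 61.9 ± 13.9% in the distal windows and 62.7 ± 1.21% in the rest (exact permutation p = 0.778, adjusted p = 0.911). That of sample 2 was 45.4 ± 6.86% in the distal windows and 46.9 ± 1.63% in the rest (exact permutation p = 0.378, adjusted p = 0.692). Of the 310 distal pairs, 116 were narrow in both lists (37.4%) and 67 wide in both (21.6%), against 35.8% and 23.6% of the pairs in the rest.

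**Figure D4:**
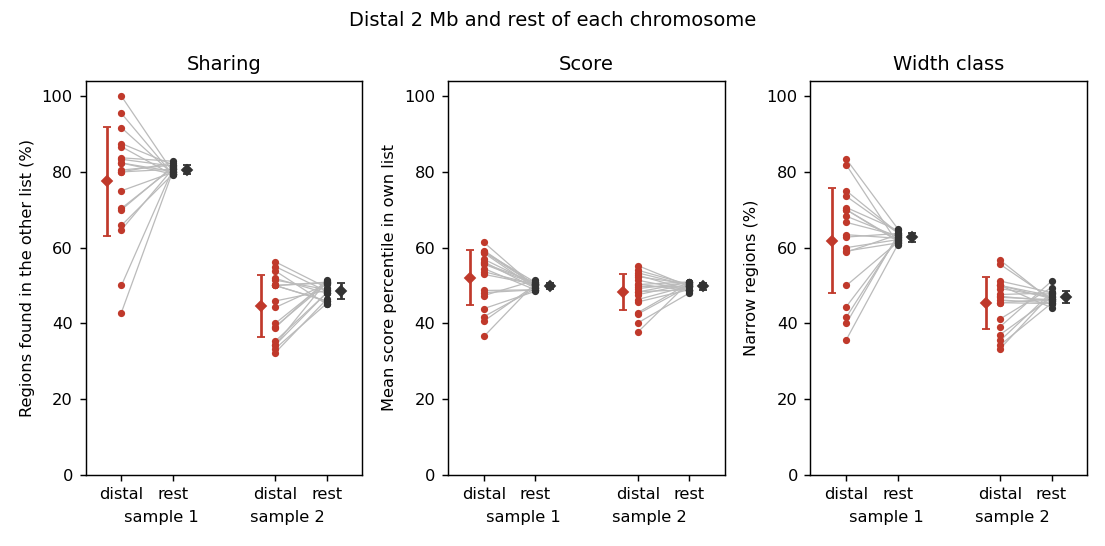
For each chromosome, the percentage of regions found in the other list, the mean score percentile within the own list and the percentage of narrow regions, in the distal 2 Mb (red) and in the rest (black). Grey lines join the values of a chromosome, and diamonds with bars give the mean and SD over 19 chromosomes. The distal points scatter around the values of the rest, with means of 77.5% and 80.6% for sharing in sample 1.

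The widest distal regions lay at the end of chromosome 13. In the sample 2 list, a region of 1430 bp from 120281668 to 120283097 had a score of 106.06 and no partner. A region of 859 bp beside it, from 120277088 to 120277946, had a score of 290.65 and overlapped a sample 1 region of 377 bp, from 120277059 to 120277435, with a score of 88.45. That sample 1 region was the widest of its list in the distal windows. In the GRCm38 gene order, the outermost protein-coding genes of chromosome 13 are Tcstv3, BC147527, AF067061, Gm21818 and Gm20767, and whether reads there came from several similar copies was not tested.

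Shared distal regions were ranked by strength, the average of their within-list score percentiles. The strongest was chr1:195231355-195231602, which scored 469.62 in sample 1 and 614.84 in sample 2 and ranked 47th among all shared regions. Next came chr16:97871709-97871815, which scored 389.60 in sample 1 and 461.18 in sample 2. The third, chr9:122461380-122461468, had 403.42 in sample 1 and 192.98 in sample 2. Of the first 10, a pair each lay on chromosomes 1, 9 and 16, and the others on chromosomes 3, 7, 8 and 15. Chromosomes 16 and 8 had one of these strong regions as their outermost region.

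On chromosome 16, the shared region from 98301232 to 98301394 was the last of the chromosome and had scores of 455.08 in sample 1 and 173.80 in sample 2. On chromosome 8, the last region, from 131683623 to 131683822, had scores of 322.87 in sample 1 and 302.67 in sample 2. In that sparse window the outermost region was thus also the strongest of the 6 shared ones by strength. On chromosome 15, the densest window, the strongest shared region lay from 103013108 to 103013263, with scores of 467.68 in sample 1 and 151.62 in sample 2.

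The highest distal score of sample 1 belonged to a shared region on chromosome 9, from 122194556 to 122194659, with 594.87, at rank 82 of the list. Its merged partner in sample 2 scored 126.81. The highest distal score of sample 2, 614.84, was that of the chromosome 1 region named first, at rank 9 of its list. Strong regions without a partner also occurred. In sample 1 the highest, chr5:151833569-151833648, scored 404.23, and the nearest sample 2 region was 2417 bp off. In sample 2 the highest, chr2:181022324-181022782, scored 267.75, and the nearest sample 1 region was 55.6 kb off.

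The densest places of the distal windows are given next, without a count for the rest of the chromosomes to set them against. Windows of 100 kb held 5 shared regions at 4 places, which were tied for the highest count. These were chr11:120100001-120200000, chr15:101800001-101900000, chr15:102700001-102800000 and chr19:59700001-59800000. The scores in the chromosome 11 window ran from 136.0 to 247.6 in sample 1 and from 52.3 to 173.9 in sample 2. In the chromosome 19 window they ran from 96.4 to 322.2 in sample 1 and from 64.1 to 143.2 in sample 2. All but 2 of the 11 distal shared regions of chromosome 19 lay more than 1 Mb from its end. At the other extreme, the longest stretch free of regions of either list within a distal window was 427.4 kb, on chromosome 3, and the shortest such maximum was 150.5 kb, on chromosome 2.

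Regions on either side of the 2 Mb limit were as follows. In the 100 kb just inside it, sample 1 had 23 regions with a median score of 158.2 and a median width of 102 bp, and sample 2 had 39 with a median score of 82.9 and a median width of 99 bp. In the 100 kb just outside it, sample 1 had 24 regions with a median score of 152.6 and a median width of 83 bp, and sample 2 had 44 with a median score of 84.0 and a median width of 117.5 bp. Over the wider steps of 1 Mb, both lists were denser outside the limit than inside it, as given above.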

How the data were processed

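Regions were called by the authors for each of the 2 replicates. Per the submitters' processing notes, Bowtie 0.12.7, bedtools 2.11.2 and the mm9 build were used; the notes at hand give no settings. The reads of both lanes were combined after alignment, per the labels' protocols. For the caller, its thresholds, any control library and the treatment of reads with several positions, the entry is: not given in the sources used here. Region names start with MACS. The score in each list was deposited by the authors without a definition. Other values in the lists are chromosome positions, printed here counting from 1. Neither depth nor a count test could be had from them.

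Overlaps, densities and tests were computed in Python 3.11.15 (numpy version 2.4.6, pandas version 2.3.3, scipy version 1.17.1). Density in the rest was taken over the length from the first listed region to the distal window. The 11 comparisons used all 524288 sign flips of the 19 chromosome differences, two-sided, with Benjamini-Hochberg adjustment over the 11. Narrow and wide regions were divided at the emptiest 5-bp bin between the width populations of each list. The code was tested on simulated data. Named regions were the 10 strongest shared distal regions, the chromosomes with most and fewest shared regions, the strongest regions without a partner, the regions that set the ends and the densest windows of 100 kb. The widest regions were picked only once widths had been looked at. The members, measures and lists were chosen with earlier results of these data known. No sequence and no annotation of mm9 was used here, so distances are from the outermost listed region and not from the chromosome's true end, and no sequence is printed. Alternatives were other window lengths, a score limit, another overlap rule, other definitions of the rest, a log2 ratio computed from the deposited lists, each list alone and leaving out chromosomes. Regions beyond the last region of the other list were left out only for the shares found in the other list.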

Additional observations from a re-analysis of the deposited data

How the results depend on the processing

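The lower density of the distal windows against their neighbours kept its direction in every alternative run for it. Apart from the omission of chromosomes, its call held only without the regions that set the ends. The stretch from 2 to 20 Mb is not counted, since it was chosen from the same profile. The difference was -1.63 per Mb with windows of 1 Mb, -1.51 with windows of 4 Mb and -0.56 as a log2 ratio. With the upper 50% of each list by score it was -1.63 per Mb (3.08 distal, 4.71 neighbouring). With a reciprocal overlap of 50% it was -3.29 per Mb (6.37 distal, 9.66 neighbouring). Sample 2 alone gave -6.18 per Mb (17.7 distal, 23.9 neighbouring) and sample 1 alone -4.53 (10.4 distal, 14.9 neighbouring). Leaving out chromosome 10 gave -3.75 per Mb, the smallest difference when a list or a chromosome was left out. These settings count different sets of regions, so the sizes of their differences per Mb are not comparable. No other comparison passed the threshold under any alternative run, with adjusted p-values of 0.130 or more outside the omission of chromosomes. Several changed direction, all without a call. With windows of 1 Mb, the distal minus rest difference was -0.890 per Mb for sample 2 density and 1.60 percentage points for narrow regions in sample 1, and distal minus first 1 Mb was -0.263 per Mb. With windows of 4 Mb, it was 1.91 per Mb for shared regions, 2.33 for sample 1 regions, 0.183 percentage points for the share of sample 1 regions found in sample 2, 0.191 percentile points for the sample 2 score and 0.722 percentage points for narrow regions in sample 1. With the upper 50% by score, it was 0.0633 per Mb for shared, 0.324 for sample 1 and -0.533 for sample 2 regions, 0.0641 and 4.89 percentage points for the shares found in the other list in samples 1 and 2, 2.07 percentile points for the sample 2 score and 0.908 percentage points for narrow regions in sample 2. The log2 ratio of sample 2 density was -0.10. Leaving out a chromosome gave -0.802 to -0.0149 per Mb for shared regions, which kept their direction, -0.581 to 0.384 for sample 1 and -0.486 to 0.948 for sample 2 regions, and -2.07 to 0.463 percentage points for narrow regions in sample 1. With 1 list left out no region can be shared, and all sample 2 regions, standing in for them, gave 0.384 per Mb. The cause of these changes was not tested. No paired analysis was possible because both replicates belong to 1 group, so replicate numbers pair no samples; the pairing in the tests is of windows on the same chromosome. Depth is unknown, so a region found in 1 list may have been missed in the other.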

Other observations

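The outermost 200 kb of the chromosomes held 50 sample 1 regions, or 13.2 per Mb, while the next 6 steps of 200 kb held 28 to 35 each, or 7.37 to 9.21 per Mb, and the last 3 steps of the distal window, from 1.4 to 2 Mb, held 53, 51 and 45, or 13.9, 13.4 and 11.8 per Mb. The outermost step was thus within the range of the inner steps. The region that sets the end is in the outermost step by construction, and without these 6 sample 1 regions the value was 11.6 per Mb. Of the sample 1 regions in the outermost step 62% had a partner, against 66.0 to 88.2% in the other steps of the distal window. This step includes a run of sample 1 regions without a partner on chromosome 2, from 62.3 to 95.1 kb below the end. In sample 2 the outermost step held 68 regions, or 17.9 per Mb, and 14.2 per Mb without the 14 that set the end, against 13.7 to 18.4 per Mb in the next 6 steps and 19.5 to 22.1 per Mb in the last 3. These steps were chosen after seeing the data and were not tested.

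Of the 14 chromosomes whose outermost region had no partner, several ended in a region with a low score in its own list. The last region of chromosome 12, from 121250190 to 121250331, had a score of 50.76 in sample 2, and that of chromosome 3, from 159553897 to 159554075, had 73.31 in sample 1. Others scored high, such as the last region of chromosome 17, from 95198014 to 95198070, with 160.10 in sample 2.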
